A study of Sargassum vulgare with 6 samples.

Results

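Among 67131 transcripts listed for Sargassum vulgare, 32 were abundant at a site and yet differed at least 5-fold among the pools of algae collected there. They are the subject here. A transcript counted as tested when 3 or more of the 6 libraries had an FPKM of 1 or above, which held for 5399. FPKM counts sequenced fragments relative to the length of the transcript and the size of the library. Of these, 59 had, at the acidified or the control site, a mean of at least 10 FPKM and a highest library at least 5 times the lowest. The rule then set aside 6 that belonged to an assembly component with 3 or more tested transcripts, and 21 whose lowest value at one site was at least 1 FPKM and at least 3 times the highest at the other. The remaining 32 transcripts (0.593% of those tested) lay in 31 components, so they are nearly as many assembled units, and 2 of them are forms of a single component. They were chosen by their spread within a site and their separation between sites, so these values describe the members and are no test.

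The libraries came from apical tissue of this brown alga, growing off Ischia at a coast acidified by natural carbon dioxide vents (Castello Aragonese) and at a control coast (Lacco Ameno). There were 3 libraries per site, each from a pool of 3 thalli, and no other treatment is labelled. With 1 coast per condition, acidification cannot be told apart from any other difference between the coasts. The summed FPKM was 1048696, 909585 and 750020 in acidified libraries 1, 2 and 3 and 874719, 764917 and 895218 in control libraries 1, 2 and 3, and the number of reads is not known. The tables pair no transcript with a gene name or function, so neither the tissue nor the roles of the members could be checked against marker genes.

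Sargassum species build submerged canopies on rocky shores, and the apical region of a thallus holds the growing tip from which new branches and blades arise. At volcanic vents, escaping carbon dioxide dissolves in seawater and lowers its pH, so algae there live with more dissolved inorganic carbon and more acid water. Where no genome is at hand, transcripts are assembled from the reads themselves. The assembler groups sequences that overlap into a component, whose sequences it treats as forms of a gene, and a sequence assembled from either site can be measured in the libraries of both. A pool of thalli gives an average over individuals, and a difference between pools of a site is what the test of a site difference uses as its error.

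The members span the range from the most abundant transcripts of the alga to moderately expressed ones. Numbered by their mean FPKM over the 6 libraries, member 1 averaged 12413 FPKM and member 32 averaged 7.56 FPKM. A mean of at least 5000 FPKM was found for 6 of the members and for 31 of all tested transcripts, while 16 members were under 50 FPKM. Of the 32 members, 16 carry the name of the acidified-site assembly and 16 that of the control-site assembly, where 50.4% of all tested transcripts are from the former. FPKM was at least 1 in all 6 libraries for 29 members, and 2 were listed at 0 somewhere. The members together held 8.71%, 9.66% and 2.24% of the summed FPKM in acidified libraries 1, 2 and 3, and 4.85%, 2.99% and 7.46% in control libraries 1, 2 and 3. These shares are lowest in acidified library 3 and control library 2.

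**Figure D1:**
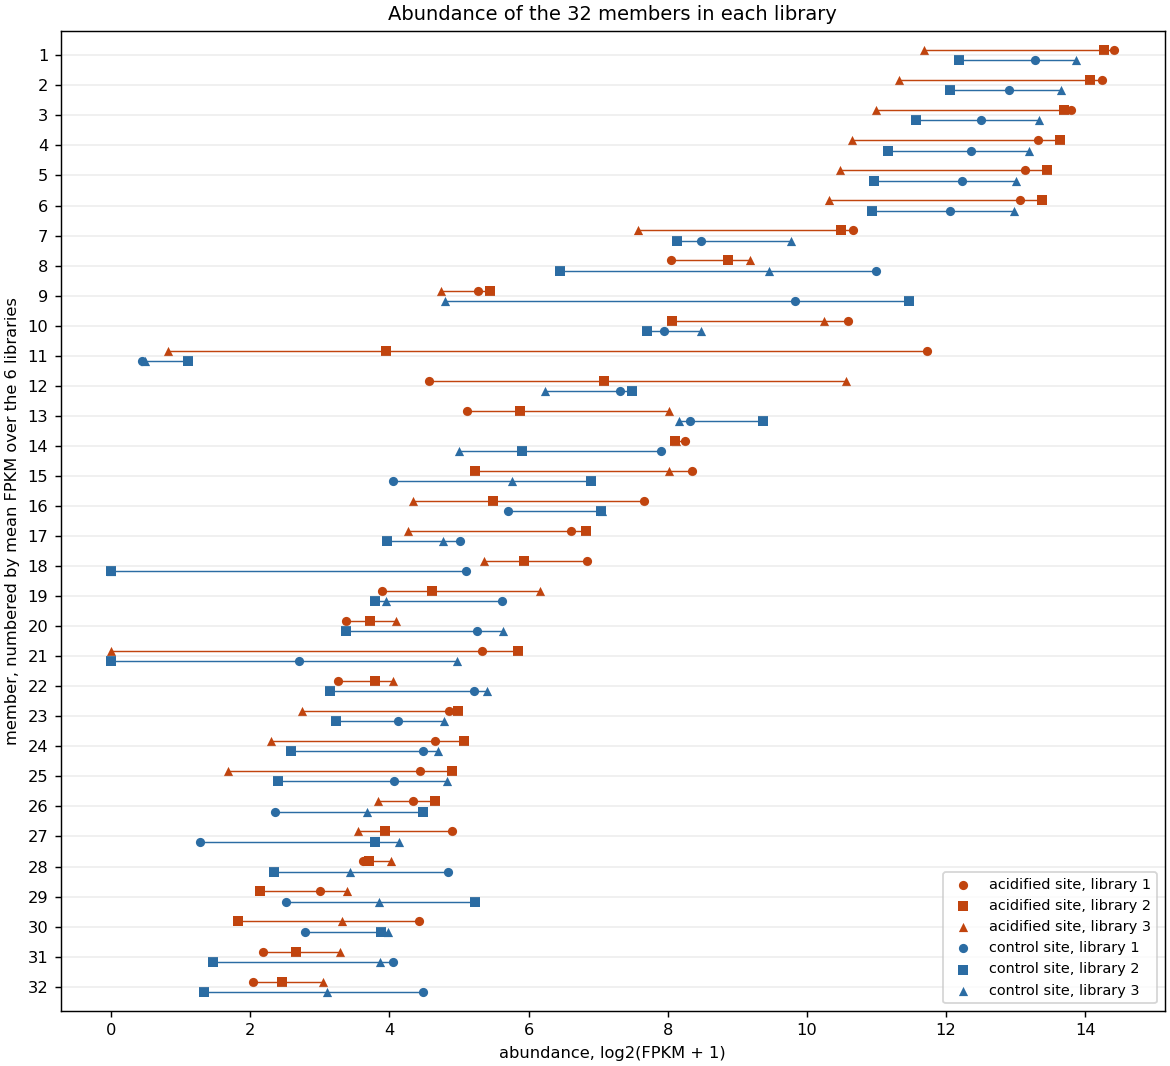
Abundance of each of the 32 members as log2(FPKM + 1), with a point per library (orange, acidified site; blue, control site; circle, square and triangle for libraries 1, 2 and 3) and a line from the lowest to the highest library of a site. Members 1 to 7 have acidified library 3 and control library 2 at the low end of both lines, and members 11, 12, 18 and 21 have the longest lines within a site next to member 9.

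Of the members, 20 met the spread criterion at the acidified site, 16 at the control site and 4 at both. When the rule was applied again without acidified library 1, 2 or 3, 14, 16 and 5 transcripts met it at the acidified site. Without control library 1, 2 or 3, 7, 4 and 7 met it at the control site. A ratio over 2 libraries cannot exceed that over all 3, so lower counts follow in part from leaving a library out. Among all tested transcripts with a mean of at least 10 FPKM at the site, 43 of 1430 (3.01%) met it at the acidified site and 22 of 1382 (1.59%) at the control site. The ratio of highest to lowest library in the members that met it had a median of 8.04 for acidified and 7.74 for control libraries, and reached 10 in 5 and 6 of them. The member nearest the ratio threshold at the acidified site had 13.9 to 70.4 FPKM, a ratio of 5.06, and the transcript next below it had 3608 to 17753 FPKM, a ratio of 4.92. At the control site these ratios were 5.002 and 4.854. By mean FPKM, the members nearest the minimum stood at 10.7 FPKM (acidified) and 10.2 FPKM (control), and the nearest transcripts left out at 9.74 and 8.79.

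Most of the abundance in the set belonged to members that shared an order of libraries at both sites. In 11 members acidified library 3 was the lowest of its site while control library 3 was above control library 1 and control library 1 above control library 2. The order was noticed in these values, and 9.75% of the 1272 tested transcripts with a mean of at least 10 FPKM at both sites also have it. The 11 include the 7 most abundant members, 6 carry the name of the acidified-site assembly and 5 that of the control-site assembly. Because these are bulk libraries, fewer cells of a type and less RNA per cell cannot be told apart in any of these values.

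Member 1, Sample_MLA_c36317.graph_c1_seq1, was at 21907, 19688 and 3286 FPKM in acidified libraries 1, 2 and 3 and at 9969, 4638 and 14991 FPKM in control libraries 1, 2 and 3. Member 2, Sample_MLA_c27944.graph_c0_seq1, from another component, was at 19392, 17241 and 2570 FPKM in the acidified libraries and at 7651, 4245 and 12885 FPKM in the control libraries. In both, acidified libraries 1 and 2 were near each other and far above library 3, control library 3 was highest at its site, and the ranges of the sites overlapped. Member 2 stood at between 0.767 and 0.915 of member 1 in every library, a range of 1.19-fold, while each of them ranged more than 6-fold within the acidified site (6.67-fold for member 1 and 7.55-fold for member 2).

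Members 3 to 6 followed the same course. Member 4 was at 10199, 12735 and 1603 FPKM in the acidified libraries and at 5273, 2287 and 9358 FPKM in the control libraries. Member 5, from the assembly of the other site, kept between 0.870 and 0.914 of member 4 in all 6 libraries, which is a range of 1.05-fold. Member 6 kept between 0.793 and 0.863 of member 4. Among the 6 most abundant members, 1, 2 and 3 were highest in acidified library 1 and kept their ratios to each other within 1.13-fold to 1.19-fold, and 4, 5 and 6 were highest in acidified library 2 and kept theirs within 1.05-fold to 1.11-fold. Between a member of the first trio and a member of the second the ratio ranged 1.32-fold to 1.42-fold. These ratios are free of the scaling of a library, but the highest library is not: with all libraries set to the same sum, all 6 were highest in acidified library 2, and with the per-library factor removed, 2 of the 6 were highest in library 1. Without sequences, whether members of a trio are parts or copies of the same transcript was not tested.

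The same order reached down to members of low abundance. Member 7 was at 1618, 1431 and 188 FPKM in the acidified libraries and at 354, 280.0 and 876 FPKM in the control libraries. Members 23, 24 and 25, at means of 19.3, 18.7 and 16.5 FPKM, also had acidified library 3 at the bottom, at 5.68, 3.93 and 2.21 FPKM against 20.7 to 32.6 FPKM in libraries 1 and 2. Relative to member 1 member 23 ranged 1.42-fold over the 6 libraries and member 25 ranged 2.72-fold. The 5-fold minimum sets a floor to the range of each of these members at the acidified site. Over the 10 members of this order with no value at 0 there, the ratio of highest to lowest acidified library was 5.41 to 13.1, with a median of 7.89. At the control site the same ratio was 3.04 to 6.45 with a median of 3.76, beside a median of 1.57 and 1.46 at the acidified and control site over the 1272 transcripts.

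**Figure D2:**
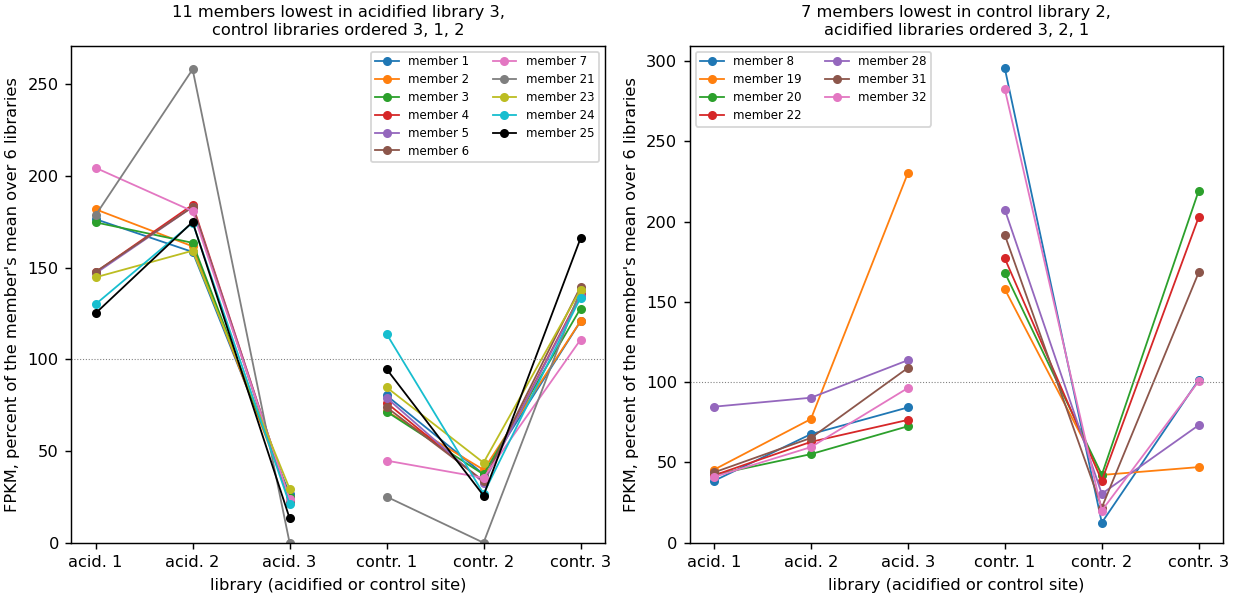
FPKM of each member in each library as a percentage of that member's own mean over 6 libraries, with a line per member and a gap between the sites, for the 11 members lowest in acidified library 3 with control libraries ordered 3, 1, 2 (left) and for the 7 members lowest in control library 2 with acidified libraries ordered 3, 2, 1 (right). The lines of a panel share an order of libraries and differ in height, on the left most in member 21, which is listed at 0 in acidified library 3 and control library 2.

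These 11 members held 8.10% and 9.48% of the summed FPKM in acidified libraries 1 and 2 but 1.65% in acidified library 3, and 4.37%, 2.41% and 7.25% in control libraries 1, 2 and 3. The share is independent of any scaling of a whole library. The 2 libraries in which they were low also had the lowest summed FPKM of their sites and the smallest of the per-library steps described with the processing, 0.00886 in acidified library 3 and 0.00890 in control library 2, against 0.0101 to 0.0116 in the others. With that per-library factor removed the median ratio over these members at the acidified site was 6.55, and with all libraries set to the same sum it was 6.36. The order held in all 11 under both, but not the 5-fold range. With the same sums, member 1 had a ratio of 4.94 and member 23 one of 4.46 at the acidified site, so the most abundant member no longer met the criterion and 9 of the 11 did. With the factor removed member 1 was at 5.07, and 10 of the 11 met it, all but member 23. The other 21 members together held between 0.179% and 0.615% of the summed FPKM in any library.

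A further 7 tested transcripts outside the set had this order with a ratio of 3.51 to 4.92 at the acidified site and a mean of at least 10 FPKM there. They include 3 with a mean of at least 5000 FPKM, the highest of which was at 17753, 15151 and 3608 FPKM in the acidified libraries and at 7232, 3909 and 10774 FPKM in the control libraries. They held 4.33%, 4.27% and 1.39% of the summed FPKM in acidified libraries 1, 2 and 3. The minimum ratio of 5 therefore sets apart transcripts that have the same order of libraries and differ in steepness.

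Acidified library 3 was the lowest of its site in 14 of the 20 members that met the criterion there, where 54.3% of the 1430 transcripts with a mean of at least 10 FPKM were lowest in it. Control library 2 was the lowest in 10 of the 16 members that met it at the control site, against 43.5% of 1382 transcripts. The 10 include member 18, in which control libraries 2 and 3 were both listed at 0. The others are members 21, 24 and 25 of the shared order and members 8, 20, 22, 28, 31 and 32 of a second order described below. Both orders have control library 2 lowest by definition. The libraries of the control site took no part in choosing members at the acidified site except through the abundance filter and the separation step. Of the 14 members lowest in acidified library 3, 13 had a mean of at least 10 FPKM at both sites. Of these 13, 12 were also lowest in control library 2. Among all tested transcripts with such means, 681 were lowest in acidified library 3, and 36.9% of them were lowest in control library 2. These 12 members are not independent of each other, since 11 of them are the members of the shared order, which itself has both libraries lowest.

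By count of members, a single low library was the more frequent form of the spread. The middle library lay nearer to the highest than to the lowest on the log2(FPKM + 1) scale in 15 of the 20 members at the acidified site and in 12 of the 16 at the control site, that is 75.0% at each, beside 53.8% and 56.5% of the tested transcripts with a mean of at least 10 FPKM at the site. At the acidified site the low library was library 3 in 12 of the 15 and library 2 in the other 3. These 15 include the 11 members of the shared order, which are not independent of each other. Apart from them, members 10, 15, 17 and 30 had 1 low library there. Members 11, 12, 13, 16 and 19 had 1 high library, so outside that order a low library was not the more frequent form. At the control site it was library 2 in 8 of the 12, library 1 in 3 and library 3 in 1. The 8 are members 21, 24 and 25 of the shared order and members 8, 20, 22, 31 and 32 of the second order described below. Outside both orders, members 9, 15, 26 and 27 had 1 low control library, in none of them library 2. Members 14, 18 and 29 had 1 high control library.

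The widest single spread was a transcript high in 1 pool. Sample_MAC_c15459.graph_c0_seq1 (member 11), the only listed form of its component, was at 3389 FPKM in acidified library 1, at 14.5 in library 2 and at 0.762 in library 3. In the control libraries it was at 0.358, 1.16 and 0.403 FPKM. Its highest acidified library was 4447 times the lowest, and its abundance in acidified library 1 alone placed it among the 11 members with a mean of at least 500 FPKM. Sample_MAC_c27373.graph_c0_seq1 (member 12) was high in another pool, with 22.7, 135 and 1503 FPKM in acidified libraries 1, 2 and 3 and 158, 178 and 74.6 FPKM in the control libraries. Here acidified library 3 was the highest, 66.3 times library 1, and the control values lay between the acidified ones. Member 13 was likewise highest in acidified library 3, at 33.8, 57.8 and 259 FPKM, and stood above that at the control site, at 319.6, 663 and 285 FPKM in control libraries 1, 2 and 3.

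Members with a single low pool at the acidified site were led by Sample_MAC_c62445.graph_c0_seq1 (member 21). It was at 39.3 and 56.8 FPKM in acidified libraries 1 and 2 and listed at 0 in library 3, and at the control site it was at 5.52 FPKM in library 1, listed at 0 in library 2 and at 30.3 in library 3. Next was Sample_MLA_c34027.graph_c0_seq3 (member 25), with 20.7, 28.9 and 2.21 FPKM in the acidified libraries and 15.7, 4.25 and 27.4 FPKM in the control libraries. Both belong to the 11 members of the shared order, and both met the criterion at each site. A value listed at 0 is an estimate and does not show that the transcript was absent from the pool.

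Acidified library 2 was the low pool in members 10, 15 and 30. Member 10 was at 1539.5, 266 and 1214 FPKM in the acidified libraries and at 244, 207 and 356 FPKM in the control libraries. Member 15 was at 323, 36.6 and 259 FPKM in the acidified libraries and at 15.6, 118 and 53.3 FPKM in the control libraries. Member 15 met the criterion at both sites without the order of the 11, since control library 1 was its lowest library overall.

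At the control site the widest spread was that of Sample_MLA_c31640.graph_c0_seq1 (member 9), at 908 and 2823 FPKM in control libraries 1 and 2 and at 26.9 FPKM in control library 3, a 105-fold range. At the acidified site it was at 37.6, 42.6 and 25.7 FPKM, close to control library 3. Sample_MAC_c86479.graph_c0_seq2 (member 18) was at 33.2 FPKM in control library 1 and listed at 0 in control libraries 2 and 3, while the acidified libraries held 114, 60.2 and 40.1 FPKM. Sample_MLA_c35298.graph_c0_seq1 (member 14) was at 238, 58.8 and 31.0 FPKM in control libraries 1, 2 and 3 and at 302, 274 and 278 FPKM in the acidified libraries. In members 9 and 14 the acidified libraries were steady, with ratios of 1.658 and 1.101 between highest and lowest.

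A second shared order ran through members that varied mainly at the control site. In 7 members of 6 components, control library 2 was the lowest of its site acidified library 3 was above acidified library 2, and acidified library 2 above acidified library 1. The order was again noticed in these values, and 8.41% of the 1272 transcripts have it. Members 31 and 32 lie outside those 1272, since their means at the acidified site were 5.87 and 4.96 FPKM. Member 8 was at 264, 465 and 579 FPKM in the acidified libraries and at 2030.0, 86.1 and 697 FPKM in the control libraries, a 23.6-fold range at the control site against 2.19-fold at the acidified site. The 2 forms of a single component, members 20 and 22, ran in parallel, with control libraries at 37.3, 9.38 and 48.7 FPKM in member 20 and at 36.1, 7.89 and 41.4 FPKM in member 22. Member 32 was at 3.10, 4.50 and 7.29 FPKM in the acidified libraries and at 21.4, 1.51 and 7.61 FPKM in the control libraries. Of these 7 members, 6 met the criterion at the control site, and member 19 met it at the acidified site. With the per-library factor removed, and with all libraries set to the same sum, 6 of the 7 kept the order, and members 20 and 22 no longer met the 5-fold criterion.

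The spread at a site was set beside the spread of the same transcripts at the other site. The other site's libraries entered the choice of members through the abundance filter and the separation step, and a wide range at the other site makes it less likely that a transcript is dropped as separated. Of the 20 members chosen at the acidified site, 19 had a mean of at least 10 FPKM at the control site, and 4 of these 19 met the criterion there. Among all 1272 transcripts with such a mean at both sites, 18 (1.42%) met it at the control site. The SD of log2(FPKM + 1) among the 3 control libraries had a median of 0.87 in the 19 members, with a range of 0.40 to 2.49, and of 0.28 in the 1272 transcripts. All 19 lay above that median of 0.28. However, 11 of the 19 are the members of the first shared order, which move together, so they are not separate observations. The rest of the 19 had SDs from 0.40 (member 10) to 1.43 (member 15). Without the separation and component steps, 23 tested transcripts met the criterion at the acidified site with such a mean at both, of which 6 (26.1%) met it at the control site, and their median SD there was 0.89.

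In the other direction, 13 of the 16 members chosen at the control site had a mean of at least 10 FPKM at the acidified site, and 4 of the 13 met the criterion there, against 23 of 1272 (1.81%). Their SD among the acidified libraries had a median of 0.58, with a range of 0.08 to 3.24, and 11 of 13 lay above the median of 0.33 over all 1272. The 4 that met the criterion there, which itself makes the SD wide, had SDs from 1.49 (member 24) to 3.24 (member 21). The rest, members 8, 9, 14, 18, 20, 22, 26, 27 and 28, were at 0.58, 0.37, 0.08, 0.75, 0.36, 0.41, 0.41, 0.69 and 0.21. Of these, members 20 and 22 are forms of a single component. Without the separation and component steps, 6 of 18 (33.3%) that met the criterion at the control site met it at the acidified site, with a median SD of 0.60 there. The criterion was met at both sites by 6 of the 1272 (0.472%), of which 4 are members. The median at the other site is thus larger for members than for all transcripts from either choice, but the 4 that met the criterion at both sites are the same in both counts, and 3 of them belong to the 11 that move together.

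**Figure D3:**
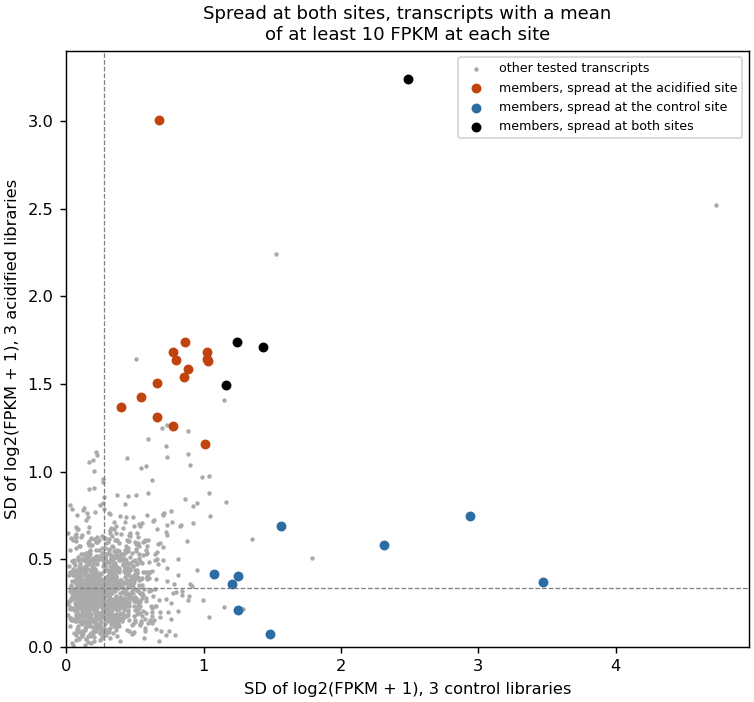
SD of log2(FPKM + 1) among the 3 acidified libraries against that among the 3 control libraries, for the 1272 tested transcripts with a mean of at least 10 FPKM at both sites, with 28 members in colour by the site at which they met the spread criterion and dashed lines at the medians over all 1272. Members chosen at the acidified site (orange) all lie to the right of the control median of 0.28, and of those chosen at the control site (blue and black) 11 of 13 lie above the acidified median of 0.33.

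Some members varied against another form of the same component. Of the 32, 18 were the only listed form of their component and 14 had other listed forms. When all listed transcripts of a component were summed, 25 members kept the spread at each site where they had met it and 7 did not. In 5 of the 7 the component held a second tested form whose value was high in libraries where the member was low.

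In member 9 that second form was at 6699, 3975 and 7045 FPKM in control libraries 1, 2 and 3, so the member made up 11.9%, 41.5% and 0.380% of both forms. The component sum was 7607, 6798 and 7072 FPKM, a range of 1.12-fold in place of 105-fold. In member 14 the share of both forms was 51.7%, 9.98% and 6.26% in control libraries 1, 2 and 3 and 99.5%, 100% and 99.5% in the acidified libraries. Its component sum ranged 1.28-fold at the control site.

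Member 17 had a like exchange at the acidified site, where it made up 81.0%, 90.6% and 25.6% of both forms in libraries 1, 2 and 3. It was at 96.2, 113 and 18.1 FPKM there while the other form was at 22.6, 11.7 and 52.8 FPKM, and the other form was listed at 0 in all control libraries. In member 30 the share was 84.2%, 11.2% and 62.7% in acidified libraries 1, 2 and 3, and the sum ranged 1.70-fold there. In member 27 the share was 3.50%, 35.9% and 35.8% in control libraries 1, 2 and 3. Fragments that match several forms are divided between them by an estimate, and how far the exchange between forms rests on that division was not tested. The remaining 2 of the 7, members 19 and 28, fell just short of a 5-fold range as sums, at 4.597 and 4.912. The 7 most abundant members all kept their spread as component sums.

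**Figure D4:**
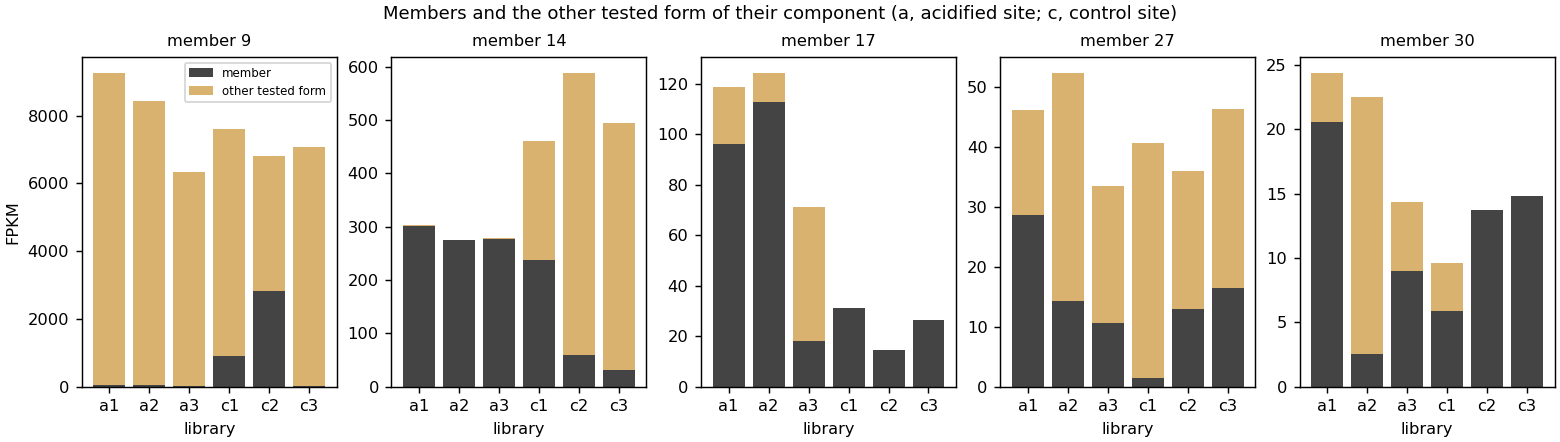
FPKM of a member (dark) and of the other tested form of its component (light), stacked, in acidified libraries a1 to a3 and control libraries c1 to c3, for the 5 members whose component sum no longer met the spread criterion and had a second tested form. Axes differ between panels and start at 0. The dark part of member 9 is largest in control library 2 while the full bars stay within 1.12-fold among the control libraries.

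The difference between the sites was tested for all 5399 transcripts on the log2(FPKM + 1) scale with limma, a linear model that shares information on variance across transcripts. At an adjusted p under 0.05, 222 of them (4.11%) were higher in the acidified and 192 (3.56%) higher in the control libraries, together 7.67%, and none of the 32 members was called. An unadjusted p under 0.05 was reached by 4 members and by 23.8% of all tested transcripts, and limma without variance trend and robust fitting also called none. The rule chose members for spread within a site and dropped those far apart between sites, so these counts follow in part from the rule and nothing is read from them. On the log2(FPKM + 1) scale the members' differences ran from -3.55 to 4.82, with a median of 0.29 beside 0.02 for all tested transcripts, and 21 were above 0. Their standard errors had a median of 0.78 against 0.31 over all tested transcripts.

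For member 1 acidified libraries averaged 14960 ± 10171 FPKM and control libraries 9866 ± 5177 FPKM (SD, n = 3 per site), a log2 difference of 0.34 ± 0.77 (SE; limma adjusted p = 0.84). Member 2 differed by 0.35 ± 0.80 (SE; limma adjusted p = 0.84). Member 11, with a difference of 4.82 ± 2.93 (SE; limma adjusted p = 0.40), had the largest rise, carried by acidified library 1. Member 9 had the largest fall, -3.55 ± 1.76 (SE; limma adjusted p = 0.31).

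The values of the sites did not overlap in 3 of the 32 members (13, 14 and 18), beside 29.1% of all tested transcripts. The rule chose wide ranges within a site and dropped separated transcripts, so this lower share follows in part from the rule. Member 13, lower at the acidified site by -2.28 ± 0.71 (SE), had the smallest adjusted p of the set (limma, 0.10). Member 14 was at 1.89 ± 0.64 (SE; limma adjusted p = 0.12) and member 18 at 4.35 ± 1.43 (SE; limma adjusted p = 0.13). Leaving out single libraries changed these outcomes. The rule chose members for libraries that stand apart, and leaving one out works on the same values. The calls below are therefore no test. Without control library 1, members 14 and 18 were called higher at the acidified site (limma adjusted p = 0.0031 and 0.00013). Without acidified library 3, member 17 was called higher and member 13 lower (limma adjusted p = 0.014 and 0.0069). Member 10 was called higher without acidified library 2, members 20 and 22 lower without control library 2, and member 9 lower without control library 3, with limma adjusted p of 0.0063, 0.033, 0.038 and 0.00098. Without acidified library 1 no member was called.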

How the data were processed

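The deposited values are FPKM in 2 tables, 1 per site, with 3 libraries each. Bowtie2 and RSEM 1.1.21 are named in the submitters' processing notes. Their settings, the assembler, any filter and sequencing depth are not stated by the labels or files, so no counting interval was possible. Low values (under 10) are whole multiples of a step per library, within 0.0005 for at least 99.9% of them. Divided by 0.01, the steps multiply to 1.00 over the 6 libraries, as if values rounded to 2 decimals had been multiplied by a factor per library. No label records that.

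Tables were joined by transcript and the rule applied as stated. The site difference was fitted with limma 3.58.1 (R 4.3.3) on log2(FPKM + 1) with variance trend and robust fitting, two-sided, Benjamini-Hochberg adjusted over all 5399 tested transcripts, and the fit was tested on simulated data. P-values set a site difference against the spread between pools, and none of them tests the spread that defines the members. Library numbers were not used as pairs. IDs are printed for the 2 members with the widest log2 range of each form (1 pool high, 1 pool low) at each site and the 2 most abundant. Other members carry their rank, and those described beyond these were picked after their values were seen. The members and lists were chosen with earlier results of these data known. The alternatives were other filters, scalings, pseudocounts and thresholds, a replicate block, and leaving out each library. The shared orders were added after the data were seen.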

Additional observations from a re-analysis of the deposited data

How the results depend on the processing

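The count of 32 members depended on the thresholds. A ratio of at least 3 gave 93 members (58 at the acidified site, 58 at the control site, 23 at both) and a ratio of at least 10 gave 10 (5, 6 and 1). With a ratio of 3, 37 members were lowest in acidified library 3, 30 in control library 2, and 81 kept the spread as component sums. With a ratio of 10 these were 4, 4 and 7. Both counts for control library 2 include member 18, listed at 0 in control libraries 2 and 3. With a ratio of 10, 50% of the transcripts with the spread at the acidified site had it at the control site, in place of 26.1%. In the other direction the share was 37.5% in place of 33.3%. At a ratio of 5 these shares were 6 of 23 and 6 of 18 transcripts, and a ratio of 10 leaves fewer. A site mean of at least 5 FPKM gave 63 members (38 and 31 by site), one of at least 50 gave 17 (4 at the control site, 1 at both), and keeping separated transcripts gave 53 (41 at the acidified site). These follow from the stricter or looser rule. The other filters, the scalings, a ratio of FPKM + 1, component sums and keeping large components left the counts of members, by site and at both, within 1.5 times. The sets differed: 28 of the 32 remained with the same sums, 29 with median ratio scaling and 29 with the per-library factor removed, while 6, 1 and 5 others joined. Leaving out 1 library gave 20 to 29 members, lowest without acidified library 3; there were 5 to 20 at the acidified site (5 without acidified library 3), 4 to 16 at the control site (4 without control library 2, 7 without control library 1 or 3) and 1 to 4 at both.

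Calls of a site difference over all tested transcripts were 40 higher and 26 lower without a filter, 142 and 126 with a pseudocount of 0.1, and 68 to 219 and 57 to 175 without single libraries; the cause was not tested. Among members, leaving out 1 library gave 0 to 2 called higher and 0 to 2 called lower, and every other alternative, the replicate block included, called 0. With the library number as a replicate block 141 transcripts were higher and 101 lower. After each site's mean was subtracted, libraries 1, 2 and 3 of both sites correlated with their own number at -0.12, 0.02 and -0.12, so the numbers were not taken as pairs. FPKM without counts gives no depth, so the counting error of a low library is not known.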
